A study of Mus musculus with 12 samples.

Results

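Interferon-stimulated genes were followed on 12 arrays of spheres grown from SKPs, the precursor cells of the dermis. A list of 41 such genes was matched by symbol to the array annotation, keeping the probe set of highest mean signal for each symbol, and 37 of the 41 were found among 22180 genes with a probe set of their own. Oas1a, Gbp2 and Dtx3l lie on probe sets annotated to more than 1 gene and were not used, and Ifi44 has no entry in the annotation used here. Tests took in genes brighter than the median probe set of their array on 3 or more of the 12 arrays, a filter that kept 36 of the 37 listed genes (all but Mx1) and 13153 genes in all.

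Interferons are secreted proteins that cells release on sensing foreign nucleic acid. They bind receptors coupled to the kinases JAK1 and TYK2, which activate a complex that holds STAT2 and IRF9. This complex binds the interferon-stimulated response element (ISRE) in promoters, and interferon gamma acts mainly through another element, the gamma-activated sequence (GAS). The induced genes encode sensors, transcription factors that enlarge the response, and proteins that block viral growth. Dermal fibroblasts carry the receptors for both kinds of interferon and also express many of these genes at a low level without infection.

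The 4 groups of 3 arrays were spheres from wounded skin given trimebutine maleate, spheres from wounded skin given alprostadil, spheres from wounded skin given vehicle, and spheres from uninjured skin given vehicle. All mice were 9 months old, of a strain that the labels write as CD57/Bl6, and every sample was grown as secondary spheres with FGF2 and EGF. Trimebutine is a drug of gut motility that acts on opioid receptors and ion channels, and alprostadil is a prostaglandin. The sources used here do not give doses, times, the skin site or the number of animals behind an isolate. The series text speaks of independent isolates, and whether isolates share an animal is not stated. Each p-value therefore reflects how far isolates lay apart within groups, pooled over the 4 groups.

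The ISRE was looked for in promoter windows of the listed genes. Because the list was made of interferon-stimulated genes, the share with this element says nothing about these arrays. RefSeq windows of 250 bases before and 50 bases after the transcription start (GRCm38.p6) were at hand for 32 of the 41 genes. Among them are Oas1a, Gbp2, Dtx3l and Ifi44, which have no expression values here. The core, GAAA followed by any 2 bases and GAAA again, was searched on both strands and was present for 16 of these 32 genes (50%), against 3.99% of 27025 genes with a window. The GAS letters TTCNNNGAA, which read the same on both strands and can share bases with an ISRE core, were present for 9 of 32 (28.1%), against 9.55% of all genes. Of the 10 listed genes with the smallest p between wound vehicle and uninjured vehicle, Zbp1, Parp9 and Parp14 had no window. Xaf1, Ifit2 and Irf7 had windows without a core. The 4 with an ISRE core in their window are shown, with the core in capitals, 5′ to 3′ on the strand of the gene. For Bst2, Isg15 and Ifit1 the 200 bases before the start are given, and for Ifih1 30 bases around a core that lies after the start.
Bst2, chr8:71537473-71537672, minus strand: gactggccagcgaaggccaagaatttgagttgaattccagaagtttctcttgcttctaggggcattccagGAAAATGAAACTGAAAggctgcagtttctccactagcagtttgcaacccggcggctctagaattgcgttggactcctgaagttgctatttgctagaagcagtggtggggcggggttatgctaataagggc
Isg15, chr4:156200819-156201018, minus strand: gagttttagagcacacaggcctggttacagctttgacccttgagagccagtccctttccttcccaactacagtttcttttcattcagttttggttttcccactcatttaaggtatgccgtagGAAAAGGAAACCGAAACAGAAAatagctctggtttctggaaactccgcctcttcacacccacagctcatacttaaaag
Ifih1, chr2:62646206-62646235, minus strand: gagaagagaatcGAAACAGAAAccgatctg
Ifit1, chr19:34640689-34640888, plus strand: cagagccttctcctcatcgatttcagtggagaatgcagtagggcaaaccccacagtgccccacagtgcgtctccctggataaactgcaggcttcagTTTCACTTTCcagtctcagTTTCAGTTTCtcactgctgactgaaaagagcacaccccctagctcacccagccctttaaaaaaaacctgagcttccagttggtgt
The Bst2 window holds 2 overlapping cores that begin at -130 and -124 from the start, and that of Isg15 holds 3, beginning at -78, -72 and -66. Ifit1 has 2 separate cores on the opposite strand, whose leftmost bases lie at -104 and -85. The Ifih1 core begins at base 33 of the transcript. A match to these letters is a description of the window and does not show that a factor binds there.

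Values are log2 expression values, so a difference of 1 is a doubling. The arrays of a group were not alike. On the first principal component of the 13153 genes, which held 43.8% of the variance, replicates 1 and 2 of wound alprostadil lay at -19.3 and -29.6 and those of wound vehicle at -34.1 and -38.9, while replicate 3 of wound alprostadil and of wound vehicle lay at 15.4 and 13.9. Dermal markers were present in every group, with 13 or 14 of 15 genes above the array median, Sox2 being at most 5.61 and below it throughout. Their summed linear level was lower on replicates 1 and 2 of wound alprostadil (70818 and 72870) and of wound vehicle (70699 and 67404) than on the other 8 arrays (82515 to 90960). Lum, the dermal collagen-binding protein lumican, read 10.57 to 11.15 on those 4 arrays and 12.13 to 12.53 on the others. The interferon-stimulated genes described below were also lowest on those 4 arrays, by the median of values centred on each gene's mean, while wound vehicle replicate 3, with a dermal sum of 86902, stood at -0.08 and below all uninjured arrays. Macrophage and monocyte markers stood apart on wound alprostadil replicate 1. There all 20 lay above the array median and their summed linear level was 45654, whereas the sums were 1779 to 3032 in wound trimebutine, 1854 and 2498 on the other wound alprostadil arrays, 3112 to 5513 in wound vehicle and 2215 to 3964 in uninjured vehicle. Ptprc, the pan-leukocyte surface protein, was 10.44 on that array and at most 5.67 on the other 11, below the array median. Of 9 T, NK and B cell markers at most 1 was above the array median on any array. Of 8 markers of plasmacytoid dendritic cells 7 were above the array median on wound alprostadil replicate 1, and 4 or 5 on each other array. Bst2, Irf7, Tcf4 and Ly6d were above it on all 12, Bst2 and Irf7 being listed genes themselves. Siglech, another of these markers, was below the array median on all 12. Irf8 and Tlr9 were above it on wound alprostadil replicate 1 only, and Tlr7 on 7 arrays. The part of these cells in the differences below was not tested.

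Wound vehicle was set against uninjured vehicle to see how wounding alone related to the interferon-stimulated genes. Most interferon-stimulated genes had lower values in wound vehicle: 34 of 36 differences were below 0, against 48.6% of all tested genes. Their median was -0.43, against 0.01 for all tested genes, and the differences ran from -1.14 for Irf7 to 0.14 for Oasl1. In limma none of the 36 passed an adjusted p of 0.05, where 0.0456% of all genes did, and the smallest adjusted p among them was 0.204 (Bst2). At an unadjusted p under 0.05 there were 18 of 36, all lower in wound vehicle, against 8.24% of all genes lower and 4.75% higher. In 23 of the 36 every wound vehicle array lay below every uninjured array, against 10% of all genes, and in 0 above, against 8.01%. In a fit with array weights estimated from the data 32 of the 36 passed, but so did 38% of all genes. Replicates 1 to 3 had weights of 2.70, 0.98 and 0.32 in wound vehicle, and 0.68, 5.99 and 0.49 in uninjured vehicle. That fit thus leaned on wound vehicle replicate 1 and uninjured vehicle replicate 2. The 34 below 0 were 34 again when any single array was left out. In bulk RNA, fewer cells with an active response and less RNA per cell cannot be told apart.

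**Figure D1:**
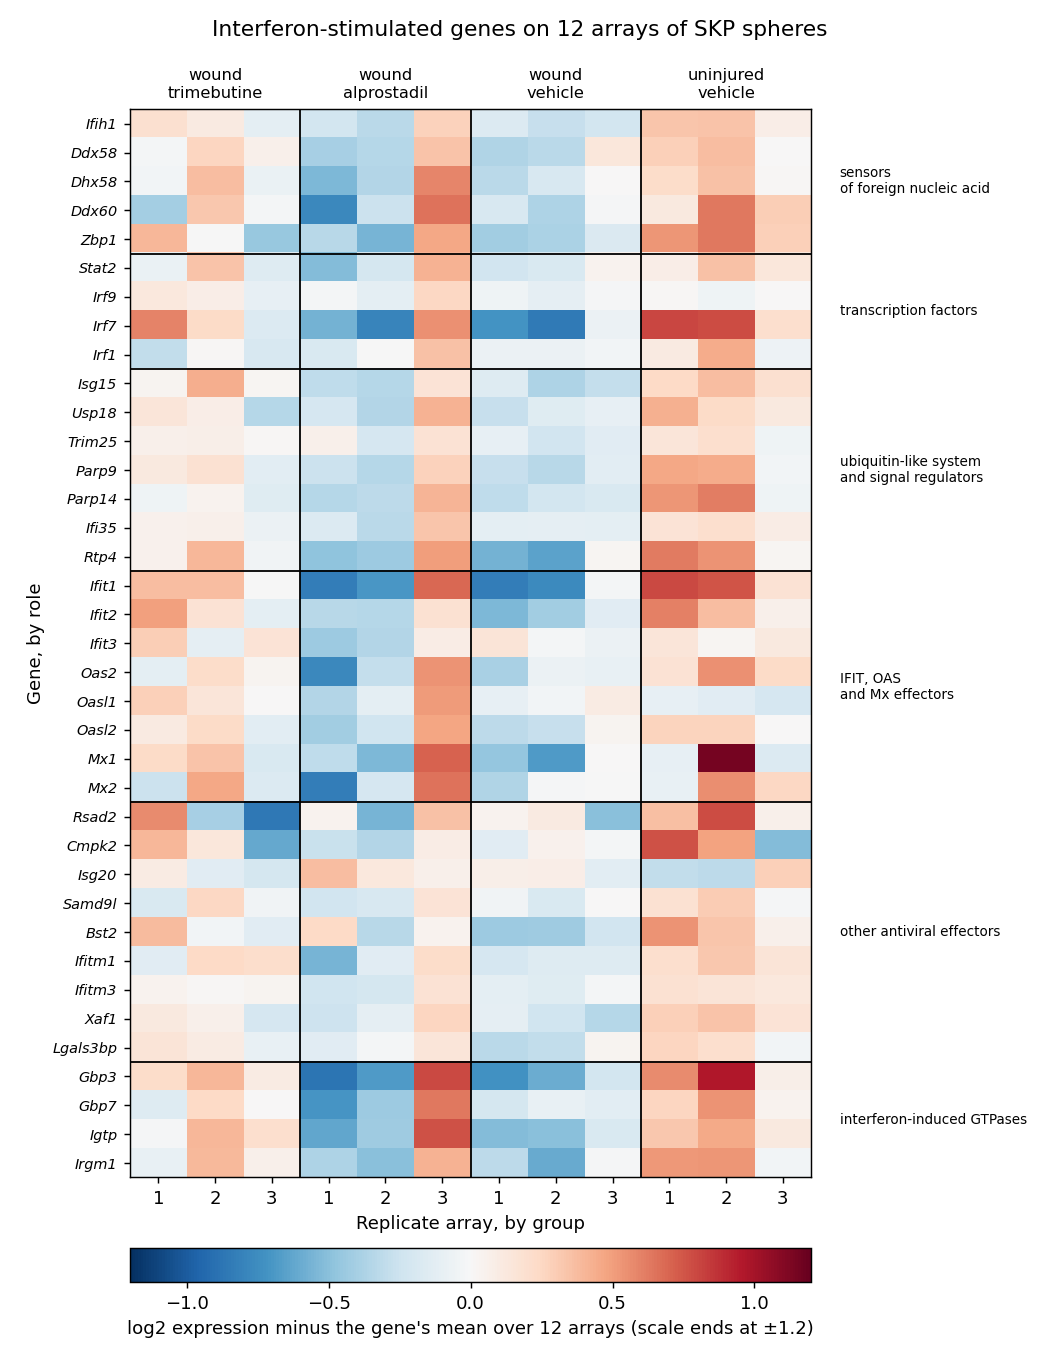
Log2 expression of 37 interferon-stimulated genes (rows, by role) on 12 arrays (columns, by group), as the difference from each gene's mean over the 12 arrays. Uninjured vehicle replicates 1 and 2 and wound alprostadil replicate 3 are mostly red (above the mean), and wound alprostadil replicates 1 and 2 and wound vehicle replicates 1 and 2 mostly blue; Isg20 runs the other way on several of these arrays.

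Centred on its own mean over the 12 arrays, the median gene of the 36 stood at 0.08, 0.18 and -0.09 in wound trimebutine, -0.34, -0.33 and 0.35 in wound alprostadil, -0.25, -0.22 and -0.08 in wound vehicle, and 0.27, 0.37 and 0.07 in uninjured vehicle. The wound vehicle arrays all lay below the uninjured arrays, and the wound alprostadil arrays spanned nearly the whole range. On wound alprostadil replicate 3 all 36 genes were above their own mean, and on replicates 1 and 2 of that group 4 and 1 were. Replicate 1, the array rich in macrophage markers, held the lowest value of 17 of the 36 genes. The group mean of 33 of the 37 genes was highest in uninjured vehicle, that of 28 was lowest in wound vehicle, and 27 followed the full order uninjured vehicle, wound trimebutine, wound alprostadil, wound vehicle. No pair of groups next to each other in this order differed past the limma threshold for any of the 36 tested genes. Its last step rested on wound alprostadil replicate 3: without that array 30 of the 36 were lower with alprostadil than in wound vehicle.

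**Figure D2:**
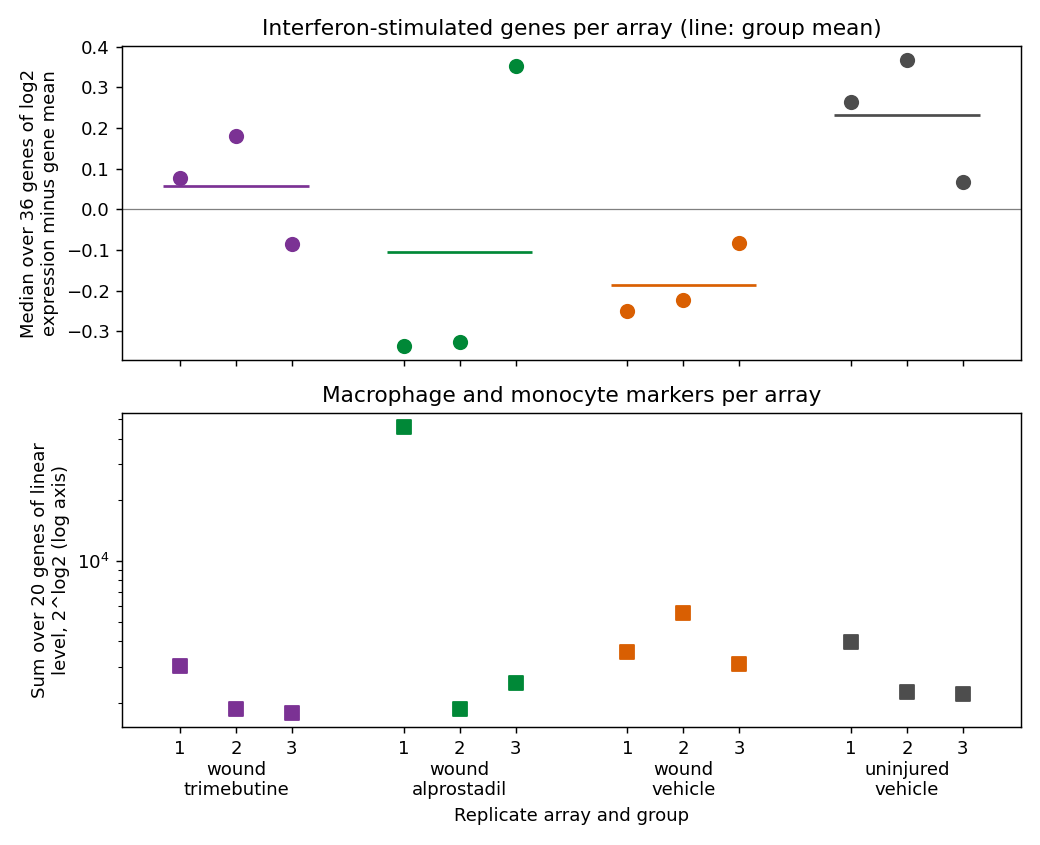
Top, the median over 36 interferon-stimulated genes of log2 expression minus the gene's 12-array mean, 1 point per array, with the group mean as a line. Bottom, the summed linear level of 20 macrophage and monocyte markers on the same arrays (log axis); wound alprostadil replicate 1 stands at 45654, and its interferon-stimulated gene median is -0.34.

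The sensors detect foreign RNA or DNA in the cytoplasm. All 5 lay lower in wound vehicle than in uninjured vehicle (median -0.47) and 0 passed. The arrays did not overlap for 4 of them, against 10% of all tested genes lower without overlap. Ifih1, which encodes the long double-stranded RNA sensor MDA5, read 10.25, 10.17 and 9.95 in wound trimebutine, 9.84, 9.74 and 10.34 in wound alprostadil, 9.89, 9.79 and 9.84 in wound vehicle, and 10.39, 10.40 and 10.14 in uninjured vehicle. The wound vehicle arrays were all below the uninjured ones, and the trimebutine arrays all above those of wound vehicle. The difference between wound vehicle and uninjured vehicle was -0.47 ± 0.15 (SE, n = 3 per group; adjusted p = 0.26). Zbp1, a sensor of left-handed nucleic acid that can start necroptosis, read 10.97, 10.56 and 10.11 in wound trimebutine, 10.23, 10.004 and 11.03 in wound alprostadil, 10.14, 10.19 and 10.39 in wound vehicle, and 11.10, 11.20 and 10.85 in uninjured vehicle. Its wound vehicle arrays again lay below all uninjured ones, with a difference of -0.81 ± 0.27 (adjusted p = 0.271), while trimebutine and alprostadil arrays overlapped both. Ddx58 (RIG-I), Dhx58 (LGP2) and Ddx60, a cofactor of RIG-I-like helicases, had differences of -0.40 ± 0.21, -0.37 ± 0.26 and -0.54 ± 0.32.

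Among the transcription factors, Irf7 had the largest difference of all listed genes. Irf7, which raises type I interferon transcription after the first wave of signal, read 11.37, 11.01 and 10.61 in wound trimebutine, 10.21, 9.98 and 11.32 in wound alprostadil, 10.06, 9.92 and 10.71 in wound vehicle, and 11.58, 11.56 and 10.98 in uninjured vehicle. Its highest wound vehicle array was below the lowest uninjured one, the difference being -1.14 ± 0.36, or 0.453 of the uninjured level (adjusted p = 0.247). Within wound alprostadil, replicate 3 was more than 1 log2 unit above replicates 1 and 2. Stat2, the STAT specific to type I and III interferon, read 11.13, 11.55 and 11.06 in wound trimebutine, 10.69, 11.000 and 11.63 in wound alprostadil, 10.99, 11.03 and 11.25 in wound vehicle, and 11.29, 11.56 and 11.35 in uninjured vehicle. The wound vehicle arrays were again below those of uninjured vehicle (-0.31 ± 0.22, adjusted p = 0.563). Irf9, the DNA-binding partner of STAT2, was nearly level, at 10.19, 10.14 and 9.97 in wound trimebutine, 10.04, 9.94 and 10.32 in wound alprostadil, 10.01, 9.95 and 10.05 in wound vehicle, and 10.08, 10.01 and 10.07 in uninjured vehicle. Its difference between wound vehicle and uninjured vehicle was -0.05 ± 0.10, with a 95% interval of -0.27 to 0.18. Irf1, induced mainly by interferon gamma, differed by -0.22 ± 0.16 with overlapping arrays.

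The ubiquitin-like system and signal regulators lay lower in wound vehicle for all 7 genes tested (median -0.53), and 0 passed. The arrays did not overlap in any of the 7, against 10% of all tested genes lower without overlap. Isg15, a ubiquitin-like protein that is joined to other proteins after interferon, read 7.01, 7.42 and 6.996 in wound trimebutine, 6.67, 6.63 and 7.14 in wound alprostadil, 6.82, 6.61 and 6.70 in wound vehicle, and 7.21, 7.34 and 7.16 in uninjured vehicle. Its signal was weak, above the array median on 9 of 12 arrays, and its wound vehicle arrays lay below all arrays of trimebutine and of uninjured vehicle. The difference from uninjured vehicle was -0.53 ± 0.15 (adjusted p = 0.218). Usp18, the protease that removes ISG15 and also dampens the type I receptor, read 11.94, 11.88 and 11.46 in wound trimebutine, 11.59, 11.44 and 12.22 in wound alprostadil, 11.52, 11.65 and 11.70 in wound vehicle, and 12.22, 12.03 and 11.92 in uninjured vehicle. Wound vehicle was below uninjured vehicle on every array, by -0.43 ± 0.20 (adjusted p = 0.385), and wound alprostadil replicate 3 equalled the highest uninjured array to 2 decimals.

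Parp9, an ADP-ribosylating partner of DTX3L, read 9.77, 9.84 and 9.53 in wound trimebutine, 9.40, 9.31 and 9.93 in wound alprostadil, 9.38, 9.32 and 9.53 in wound vehicle, and 10.12, 10.09 and 9.63 in uninjured vehicle. Parp14, a related ADP-ribosyltransferase, read 9.71, 9.80 and 9.62 in wound trimebutine, 9.43, 9.46 and 10.18 in wound alprostadil, 9.47, 9.55 and 9.58 in wound vehicle, and 10.30, 10.38 and 9.72 in uninjured vehicle. In both genes uninjured replicates 1 and 2 stood above replicate 3, which still exceeded every wound vehicle array. The differences were -0.54 ± 0.18 for Parp9 and -0.60 ± 0.21 for Parp14 (adjusted p = 0.284 and 0.299). Trim25, a ubiquitin ligase that activates RIG-I, read 9.68, 9.69 and 9.64 in wound trimebutine, 9.68, 9.42 and 9.80 in wound alprostadil, 9.52, 9.40 and 9.49 in wound vehicle, and 9.77, 9.82 and 9.57 in uninjured vehicle. It varied little, with a range of 0.42 over the 12 arrays, and differed by -0.25 ± 0.11 (adjusted p = 0.363). Rtp4, a chaperone of receptors that also restrains the interferon response, and Ifi35 differed by -0.79 ± 0.29 and -0.27 ± 0.14. A second, dimmer Ifi35 probe set did not show this: it read 7.20, 7.26 and 7.24 in wound vehicle, and 7.19, 7.05 and 7.09 in uninjured vehicle.

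The IFIT proteins bind viral RNA, the OAS proteins make a second messenger that activates RNase L, and the Mx proteins are antiviral GTPases. Of the 7 tested genes of this group 6 lay lower in wound vehicle (median -0.37) and 0 passed. Ifit1 read 10.96, 10.95 and 10.58 in wound trimebutine, 9.76, 9.88 and 11.28 in wound alprostadil, 9.76, 9.82 and 10.56 in wound vehicle, and 11.38, 11.34 and 10.75 in uninjured vehicle. The wound vehicle arrays did not overlap those of trimebutine or of uninjured vehicle, and the wound vehicle mean was 0.464 of the uninjured level (-1.11 ± 0.38, adjusted p = 0.285). Ifit2 read 7.86, 7.54 and 7.25 in wound trimebutine, 7.03, 7.02 and 7.54 in wound alprostadil, 6.82, 6.95 and 7.23 in wound vehicle, and 7.96, 7.73 and 7.42 in uninjured vehicle. The same separation held, with a difference from uninjured vehicle of -0.71 ± 0.21 (adjusted p = 0.218). Ifit3 behaved differently from these neighbours, at 8.04, 7.63 and 7.91 in wound trimebutine, 7.30, 7.39 and 7.84 in wound alprostadil, 7.90, 7.72 and 7.67 in wound vehicle, and 7.89, 7.77 and 7.86 in uninjured vehicle. Its arrays overlapped between wound vehicle and uninjured vehicle (-0.08 ± 0.15), with the lowest 2 values on wound alprostadil replicates 1 and 2.

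Oasl2, an OAS-like protein, read 12.05, 12.18 and 11.82 in wound trimebutine, 11.53, 11.70 and 12.42 in wound alprostadil, 11.63, 11.67 and 11.98 in wound vehicle, and 12.21, 12.21 and 11.95 in uninjured vehicle. Wound vehicle replicate 3 slightly exceeded the lowest uninjured array, and the difference was -0.37 ± 0.21. Oas2 differed by -0.50 ± 0.27 and Mx2 by -0.37 ± 0.34. Oasl1, reported in mice to hold back Irf7 translation, was 1 of the 2 listed genes with a higher mean in wound vehicle than in uninjured vehicle, by 0.14 ± 0.18. Mx1 was below the array median on all 12 arrays and was not tested. It read 5.77, 5.88 and 5.36 in wound trimebutine, 5.24, 5.005 and 6.25 in wound alprostadil, 5.08, 4.86 and 5.55 in wound vehicle, and 5.44, 6.69 and 5.38 in uninjured vehicle. The uninjured arrays alone spanned more than 1 log2 unit. Most inbred laboratory mouse strains carry Mx1 alleles that make no working protein. Oas2, Mx2, the IFIT genes and the GTPases have close paralogs, and how far their probe sets cross-hybridise was not tested.

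Among the other antiviral effectors 8 of 9 lay lower in wound vehicle (median -0.34) and 0 passed. Bst2 (tetherin), which holds budding virus at the cell surface, had the smallest p of the listed genes and read 9.97, 9.55 and 9.45 in wound trimebutine, 9.82, 9.26 and 9.63 in wound alprostadil, 9.15, 9.16 and 9.36 in wound vehicle, and 10.12, 9.92 and 9.65 in uninjured vehicle. Every wound vehicle array lay below every array of trimebutine and of uninjured vehicle, and the difference from uninjured vehicle was -0.67 ± 0.18 (95% interval -1.08 to -0.27, adjusted p = 0.204). Wound alprostadil replicate 1, where macrophage markers were high, had the highest Bst2 value of its group, unlike most listed genes. Xaf1, a pro-apoptotic protein that antagonises XIAP, read 10.19, 10.13 and 9.86 in wound trimebutine, 9.82, 9.96 and 10.33 in wound alprostadil, 9.96, 9.83 and 9.73 in wound vehicle, and 10.35, 10.41 and 10.23 in uninjured vehicle. Its wound arrays with vehicle or trimebutine were all below the uninjured ones, and the wound vehicle difference was -0.49 ± 0.14 (adjusted p = 0.21).

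Ifitm3, a membrane protein that blocks viral entry, gave strong signal throughout, at 13.15, 13.12 and 13.14 in wound trimebutine, 12.86, 12.90 and 13.28 in wound alprostadil, 12.99, 12.96 and 13.09 in wound vehicle, and 13.29, 13.26 and 13.23 in uninjured vehicle. The wound trimebutine arrays lay between those of wound vehicle and those of uninjured vehicle without touching either, although the differences were small (-0.25 ± 0.10 for wound vehicle against uninjured vehicle, adjusted p = 0.363). Lgals3bp, a secreted galectin-binding glycoprotein, read 12.81, 12.75 and 12.57 in wound trimebutine, 12.52, 12.63 and 12.80 in wound alprostadil, 12.33, 12.36 and 12.69 in wound vehicle, and 12.91, 12.86 and 12.62 in uninjured vehicle. Wound vehicle replicates 1 and 2 were the lowest of the 12 arrays while replicate 3 overlapped the uninjured ones (-0.34 ± 0.13, adjusted p = 0.319). Rsad2 (viperin), which makes a chain-terminating nucleotide, and its partner enzyme Cmpk2 overlapped between the groups (-0.52 ± 0.36 and -0.28 ± 0.33), and both were lowest on wound trimebutine replicate 3. Isg20, an exonuclease, had the other positive difference, 0.12 ± 0.17. Samd9l and Ifitm1 differed by -0.23 ± 0.14 and -0.39 ± 0.17. Ifitm1 lay above the array median on 3 arrays only, uninjured vehicle replicates 1 and 2 and wound trimebutine replicate 2. It passed the filter through groups where it was high, so its place among the 18 and 23 genes counted above carries no weight. With a filter on all 12 arrays, 31 of 33 genes were lower in wound vehicle than in uninjured vehicle.

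**Figure D3:**
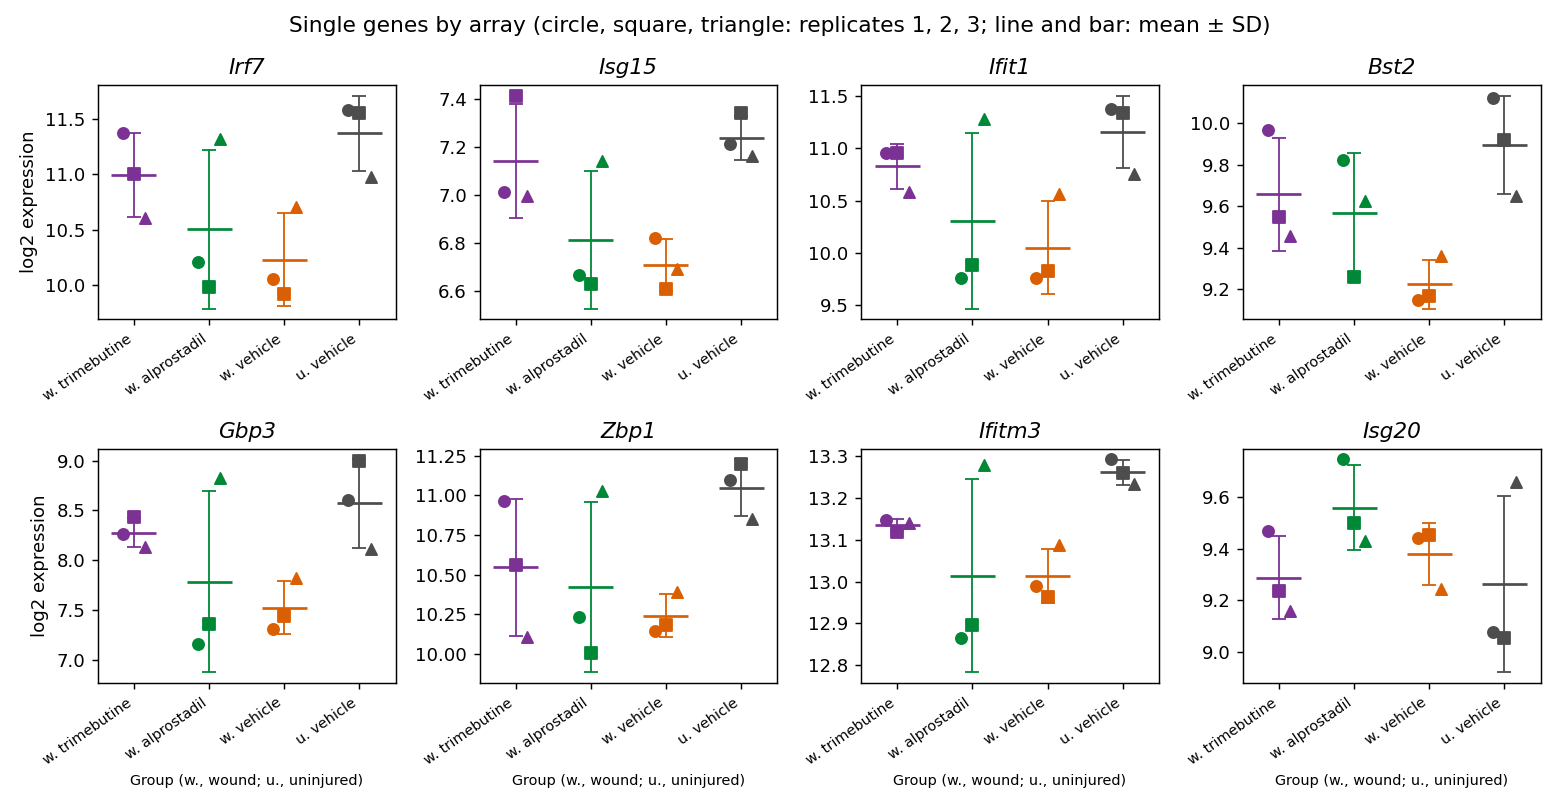
Log2 expression of 8 interferon-stimulated genes by group, with a symbol for each replicate and the mean ± SD of 3 arrays. Irf7, Isg15, Ifit1, Bst2, Gbp3, Zbp1 and Ifitm3 are lower on every wound vehicle array than on every uninjured vehicle array, and Isg20 is not.

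The interferon-induced GTPases attack the vacuoles of intracellular parasites and bacteria, and 4 of the 5 listed were measured. All 4 lay lower in wound vehicle than in uninjured vehicle, with a median of -0.67, the lowest of the 6 role groups, and 0 passed. Gbp3 read 8.26, 8.43 and 8.14 in wound trimebutine, 7.16, 7.36 and 8.83 in wound alprostadil, 7.31, 7.44 and 7.82 in wound vehicle, and 8.61, 8.99 and 8.11 in uninjured vehicle. Its wound vehicle mean was 0.484 of the uninjured level (-1.05 ± 0.39, adjusted p = 0.311), and within wound alprostadil replicate 3 exceeded replicate 1 by more than 1.5 log2 units. Igtp and Irgm1, both immunity-related GTPases, differed by -0.70 ± 0.30 and -0.65 ± 0.26, and Gbp7 by -0.42 ± 0.29.

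Wound trimebutine was set against wound vehicle to see how that drug related to the same genes. The wound vehicle arrays also serve in the comparison above and in the one with alprostadil, so these sets of differences are not independent. Of the 36 genes 33 had higher values with trimebutine, whereas 50% of all tested genes had lower ones, and the median was 0.22, against 0 for all genes. In limma 0 of 36 passed, as did 0% of all genes, and the smallest adjusted p was 0.528. At an unadjusted p under 0.05 there were 3 (Isg15, Ifit2 and Bst2), all higher with trimebutine, against 6.38% of all genes higher and 3.05% lower. The 3 trimebutine arrays lay above the 3 wound vehicle arrays for 13 of the 36, against 9.21% of all genes, and below them for 0, against 6.63%. The 13 include Ifitm1, whose signal was weak, and Ifi35. The dimmer Ifi35 probe set went the other way, at 7.08, 7.11 and 7.03 with trimebutine and 7.20, 7.26 and 7.24 in wound vehicle. With array weights 15 of the 36 passed, beside 30.7% of all genes.

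The 4 genes with the smallest p here were Isg15 (0.43 ± 0.15), Ifit2 (0.55 ± 0.21), Bst2 (0.43 ± 0.18) and Irf7 (0.77 ± 0.36). In the first 3 of these the trimebutine and wound vehicle arrays did not overlap, and for Irf7 trimebutine replicate 3, at 10.61, lay below wound vehicle replicate 3, at 10.71. Ifit1 and Gbp3 differed by 0.78 ± 0.38 and 0.75 ± 0.39. The median of the differences was 0.51 for the GTPases, 0.28 for the sensors, 0.23 for the IFIT, OAS and Mx genes, 0.20 for the ubiquitin-like system, 0.13 for the transcription factors and 0.12 for the other effectors. The 3 genes below 0 were Irf1, Rsad2 and Isg20. Against uninjured vehicle, trimebutine spheres still had lower values for 32 of the 36 genes, where 48.9% of all genes had. The median of those differences was -0.20, and 0 passed in limma, against 0.198% of all genes. None of the 36 had an unadjusted p under 0.05 there, against 3.6% of all genes lower and 3.53% higher. The arrays separated for Ifi35, Ifitm3 and Xaf1, lower with trimebutine (6.61% of all genes), and for Oasl1, higher (7.09%). On the dimmer Ifi35 probe set they overlapped. With array weights 6 of the 36 passed, beside 16.5% of all genes.

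Alprostadil was compared with vehicle in wounds in the same way. In limma 0 of 36 passed, with 0% of all genes, and array weights gave the same counts. None had an unadjusted p under 0.05, against 1.68% of all genes lower and 1.07% higher. In none did the arrays of the groups separate, against 3.12% lower and 2.78% higher. The median difference was 0.12, against 0.03 for all genes, and 5 genes lay below 0, against 40.6% of all genes. By same-numbered arrays, the median of the centred genes was lower with alprostadil for replicates 1 and 2 (-0.34 against -0.25, and -0.33 against -0.22) and higher for replicate 3 (0.35 against -0.08). The counts rested on replicate 3 of wound alprostadil: without it 30 of the 36 lay below 0 and the median was -0.13. Without replicate 1, the macrophage-rich array, 2 lay below 0 and the median was 0.23. After centring the arrays on their medians over the tested genes, 15 lay below 0.

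The 4 genes with the smallest p were Bst2 (0.35 ± 0.18), Ifit3 (-0.25 ± 0.15), Trim25 (0.16 ± 0.11) and Lgals3bp (0.19 ± 0.13), each at an adjusted p of 0.998. The spread within wound alprostadil was wide, with a median SD over the 36 genes of 0.41, against 0.12 in wound vehicle, and for all tested genes 0.18 and 0.15. The 95% interval for Gbp3, from a variance shared by the 4 groups, ran from -0.59 to 1.12. Against uninjured vehicle, alprostadil spheres had lower values for 33 of the 36 genes, where 44.6% of all genes had, with a median of -0.36 and 0 passing in limma (0% of all genes). At an unadjusted p under 0.05 there were 7, all lower with alprostadil, against 3.97% of all genes lower and 3.28% higher. The arrays separated for Isg15, lower with alprostadil (4.36% of all genes), and for none in the other direction (5.05%). With array weights 3 of the 36 passed, beside 4.27% of all genes.

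Trimebutine and alprostadil spheres differed in no listed gene in limma (0 of 36, and 0% of all genes). The median of trimebutine minus alprostadil was 0.14, 3 of 36 lay below 0, against 53.8% of all genes, and Ifit3 alone had an unadjusted p under 0.05 (0.35 ± 0.15, adjusted p = 0.752), against 2.5% of all genes higher and 1.92% lower. The arrays separated for none of the 36, against 5.21% of all genes higher and 6.03% lower. Without wound alprostadil replicate 3 the median was 0.40, and without replicate 1 it was 0.02. The limma F test across the 4 groups called 0 of the 36 and 0.0152% of all genes. With array weights it called 28 of the 36, beside 40.3% of all genes.

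**Figure D4:**
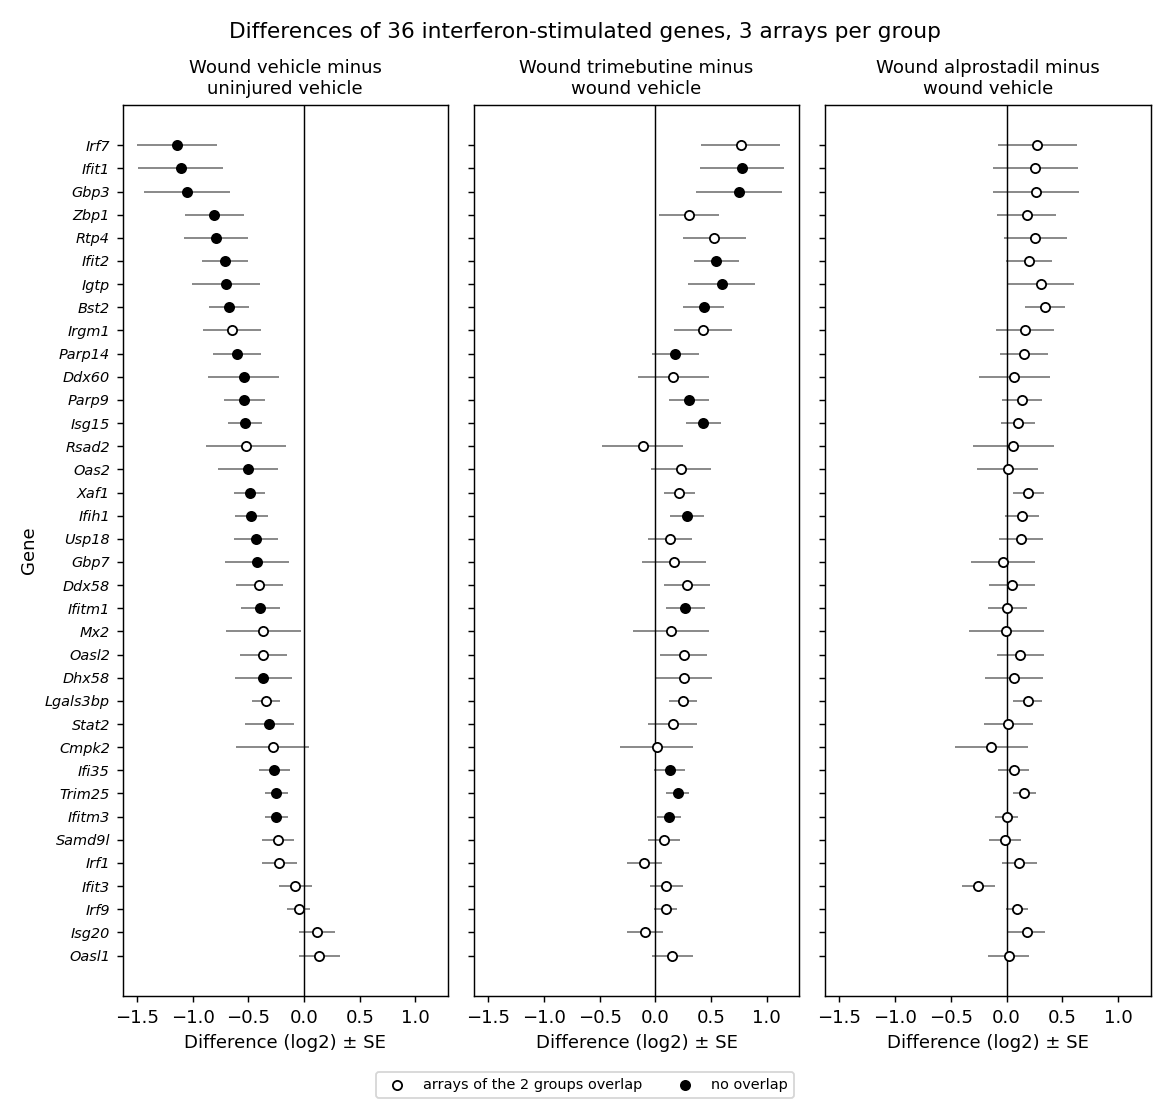
Differences (log2, with SE from limma) of 36 interferon-stimulated genes, ordered by wound vehicle minus uninjured vehicle. Filled points are genes whose 3 arrays in each group do not overlap, 23 in the left panel, 13 in the middle and 0 in the right; 34, 3 and 5 genes lie below 0.

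The listed genes moved together from array to array. Over the 12 arrays the correlation of a gene with the median of the other 35 had a median of 0.89 and was above 0.8 for 25 of the 36. Of all 13153 tested genes, 2.67% had a correlation above 0.8 with the median of the 36. After each group mean was removed, the median correlation was 0.86. The deviations were widest in wound alprostadil, with a median SD of 0.41, against 0.12 to 0.21 in the other groups. The pooled value can therefore rest on that group and does not show common movement within each group. The correlations are descriptions over 12 arrays whose values were normalised together. Gbp3 (0.98), Ifit1 (0.96), Oasl2 and Parp9 (0.95 each) were closest to the rest. Isg20 ran against them (-0.57), and Oasl1 (0.47), Ifit3 (0.49), Rsad2 (0.51), Bst2 and Cmpk2 (0.60 each) were loosely tied. Oasl1 reached 0.88 once group means were removed, and Bst2 dropped to 0.29.

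Isg20 read 9.47, 9.24 and 9.16 in wound trimebutine, 9.75, 9.50 and 9.43 in wound alprostadil, 9.44, 9.45 and 9.24 in wound vehicle, and 9.08, 9.05 and 9.66 in uninjured vehicle. The highest of these values was on wound alprostadil replicate 1 and the lowest on uninjured vehicle replicate 2, the arrays on which 17 of the 36 genes had their lowest and 13 their highest value.

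The parts of the pathway upstream of these genes were described from lists of other genes, and none passed in either direction in any of these lists between wound vehicle and uninjured vehicle. Of 8 interferon ligands, 3 were tested. Ifnb1, the interferon that fibroblasts make first, was at most 4.20 on the 12 arrays and below the array median on all. Ifnl2 and Ifna4, members of families with close paralogs, had differences of 0.29 ± 0.15 and 0.23 ± 0.17. Of the 6 receptor chains, 5 were above the array median on all 12 arrays and were tested, and 3 of these lay lower. Ifnlr1, the chain specific to interferon lambda, was below the array median on all 12, at 5.98 to 6.47, and was not tested. Ifnar1 was nearly level, from 11.11 to 11.38 over the 12 arrays, and differed by 0.02 ± 0.08. Ifnar2, its partner chain, differed by -0.16 ± 0.07, and the gamma receptor chains Ifngr1 and Ifngr2 by -0.40 ± 0.14 and -0.15 ± 0.16. For the receptor-bound kinases, Jak1 lay lower (-0.27 ± 0.11) and Tyk2 higher (0.40 ± 0.15) in wound vehicle.

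Genes that restrain the signal were lower in 5 of 6, the smallest p belonging to the phosphatases Ptpn2 (-0.34 ± 0.09) and Ptpn11 (-0.27 ± 0.09). Of 11 tested genes that sense nucleic acid or relay that signal upstream of interferon 9 were lower, the smallest p belonging to the endosomal RNA receptor Tlr3 (-0.58 ± 0.17) and the kinase Ikbke (-0.32 ± 0.12). A further 41 interferon-stimulated genes outside the list gave a like picture, with 39 lower in wound vehicle (48.6% of all tested genes were), a median of -0.42 and 0 called. Against wound vehicle, 5 of these 41 were lower with trimebutine and 5 with alprostadil, where 50% and 40.6% of all genes were, and the medians were 0.21 and 0.15, with 0 called in each. Psmb9, an immunoproteasome subunit, read 8.45, 8.70 and 8.40 in wound trimebutine, 8.49, 8.31 and 9.14 in wound alprostadil, 8.29, 8.21 and 8.70 in wound vehicle, and 9.25, 9.34 and 9.11 in uninjured vehicle. Its wound vehicle arrays were below all uninjured ones (-0.83 ± 0.20, adjusted p = 0.187). Cxcl10, a chemokine that draws T cells, read 8.01, 7.90 and 7.40 in wound trimebutine, 7.14, 6.63 and 8.17 in wound alprostadil, 6.72, 6.36 and 7.37 in wound vehicle, and 8.65, 8.48 and 7.88 in uninjured vehicle. The wound vehicle arrays were again all below the uninjured ones, by -1.52 ± 0.39 in the mean (adjusted p = 0.195). Wound vehicle replicates 1 and 2 and wound alprostadil replicate 2 were lowest. On those arrays Cxcl10 lay below the array median, so its signal was weak there, and it lay above it on the other 9.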

How the data were processed

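Spheres were profiled on Affymetrix mouse whole-transcript arrays. The table deposited by the authors holds RMA output on a log2 scale, 1 value per probe set and array; the submitters' processing notes name oligo, and the sources used here give no version or settings. Of 41345 probe sets 23521 carry 1 gene symbol, 1814 several and 16010 none, and those with 1 symbol were used. Array medians were 6.57 to 6.74, and precision is limited by the 3 arrays per group.

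All 12 arrays entered 1 linear model (limma 3.58.1, R 4.3.3, moderated variances, 8 residual degrees of freedom), with two-sided p-values adjusted by Benjamini-Hochberg over 13153 genes and a threshold of 0.05. The variance of a gene was shared by the 4 groups, so an SE or p-value does not measure the spread of the 2 groups compared. For Ifi35 the SD was 0.01 in wound vehicle, 0.06 in uninjured vehicle and 0.34 in wound alprostadil. Its SE between the first 2 of these was 0.14. No set test was run. Genes and lists were chosen with earlier results of these data known. Values on every array are given for the 10 listed genes of smallest p between wound vehicle and uninjured vehicle, the 4 of smallest p for each drug against wound vehicle, the 5 of strongest signal, and Stat2, Irf9, Irf7, Isg15, Usp18, Ifit1 and Mx1; for Gbp3 and Isg20 they were added after their values were seen. Outside the list the 2 genes of smallest p per list and fixed signalling genes are named.

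Deviations from the group means correlated above 0.1 for all 3 same-numbered pairs of wound alprostadil with wound vehicle (0.19, 0.43 and 0.62). The same held for wound trimebutine with wound alprostadil, and not for all pairs of the other comparisons. Over all comparisons 11 of 18 same-numbered pairs lay above 0.1. So did 13 of 36 different-numbered pairs, which reached 0.58. The check therefore does not show whether the replicate numbers pair the samples. The values printed come from the model without a block for replicate number, and with that block 0 of the 36 genes passed in each comparison. Figures used Python 3.11.15 and matplotlib 3.10.9.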

Additional observations from a re-analysis of the deposited data

How the results depend on the processing

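Counts of listed genes past the threshold stayed at 0 in all 6 comparisons and in the F test with the replicate block (0 in each), the mean of probe sets, no filter, a filter on all 12 arrays, median centring, cyclic loess, a trended robust prior, only the groups compared (not run for the F test), a threshold of 0.1, and without any single array (0 to 0); the fit without the 3 arrays of lowest median, added after seeing the data, also gave 0. Array weights, from 0.30 to 5.99 per array, were the exception: 32 for wound vehicle against uninjured vehicle, 15 and 0 for trimebutine and alprostadil against wound vehicle, 0 between the drugs, 6 and 3 for them against uninjured vehicle, and 28 in the F test, beside 4997, 4034, 0, 0, 2171 and 562 of all genes in the 6 comparisons and 5302 in the F test. The cause was not tested. Without single arrays the median difference ran from -0.54 to -0.34 for wound vehicle against uninjured vehicle, from 0.18 to 0.29 and from -0.13 to 0.23 for trimebutine and alprostadil against wound vehicle, from 0.023 to 0.40 for trimebutine against alprostadil, and from -0.29 to -0.12 and from -0.58 to -0.19 for them against uninjured vehicle. Both ends of the alprostadil ranges came from leaving out replicate 3 or 1 of that group.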

Other observations

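Ifi205, a member of the interferon-inducible p200 family with close paralogs, was singled out after its values were seen. It read 12.72, 12.69 and 12.55 in wound trimebutine, 11.18, 9.69 and 12.91 in wound alprostadil, 8.76, 8.83 and 12.61 in wound vehicle, and 13.29, 13.28 and 12.68 in uninjured vehicle. Wound vehicle replicates 1 and 2 and wound alprostadil replicate 2 lay more than 2 log2 units below all wound trimebutine and uninjured vehicle arrays, and wound vehicle replicate 3 did not. The difference between wound vehicle and uninjured vehicle was -3.01 ± 0.99 (SE, n = 3 per group; limma adjusted p = 0.27).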
